A study of Rhinolophus ferrumequinum with 8 samples.

Results

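The constitutive proteasome subunits were followed in spleen RNA of hibernating and active bats. A gene was taken when its name began with PSMA, PSMB, PSMC or PSMD and a digit, or was ADRM1, and when its mean over the 8 libraries was at least 1. The immunoproteasome subunits PSMB8, PSMB9 and PSMB10 were left out. The rule took 36 of the 19652 genes in the table, and no difference between states entered it. They comprised 14 subunits of the core particle, 18 of the regulatory particle and 3 assembly chaperones with PSMD names. The remaining member, PSMC3IP, is a cofactor of meiotic recombination whose name fits the rule but which is no proteasome subunit, and it was kept apart from the other 35. PSMA8 and PSMB11, core subunits known from testis and thymus, fell short of the minimum. PSMA8 was at most 0.194 in any library, with a mean of 0.0639, and PSMB11 was listed at 0 in all 8. The lowest members inside the limit were PSMC3IP and PSMD5, with means of 15.8 and 20.2.

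The proteasome degrades proteins that carry ubiquitin chains. Its barrel-shaped core holds outer rings of alpha subunits and inner rings of beta subunits, and PSMB5, PSMB6 and PSMB7 cut the chain of the substrate inside it. The regulatory particle caps the barrel: its base unfolds the substrate with a ring of ATPases, and its lid holds the deubiquitinase PSMD14 that removes the ubiquitin chain. Subunits of both particles are made by nearly every cell, and in immune tissue PSMB8, PSMB9 and PSMB10 can take the place of the constitutive catalytic subunits.

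RNA sequencing was done on entire spleens of females of Rhinolophus ferrumequinum, the greater horseshoe bat, caught in the wild. Bats of the summer active state were sampled in July, and those in torpor, the cold and inactive phase of hibernation, in November. Arousal and winter active bats also came from November, held for 2 h and for 26 h after capture. Each of the 4 states had 2 biological replicates, and a library is named by its state and replicate number, as in torpor 1. No age, genotype or treatment other than season and capture was given, and season and state cannot be told apart wherever summer is compared. Levels are rescaled TPM, a share of the library's transcripts corrected for gene length and then rescaled between libraries, so that levels of different genes can be compared. Differences are on the log2(value + 1) scale. A gene was called at a limma adjusted p (Benjamini-Hochberg, over 13542 genes with a mean of at least 1) under 0.05.

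The deposited columns summed to between 745098 and 1331820, so the scale of a library was tested as an alternative. Setting every column to 1000000 moved the median difference over all genes to 0.29 in torpor against summer active and to 0.76 in arousal against summer active, from -0.055 and 0.083 as deposited. All 11 spleen markers in the table, among them CD79A, SPIC and TLX1, were detected in every library, and 2 further fixed markers (CD3D and CD3G) were not analysed here. Libraries also differed in transcripts of other cells. The sum of 9 erythroid genes was 5963 and 8893 in summer, 91.2 to 139 in torpor, 10.7 to 11.1 in arousal and 11.7 to 66.0 in winter active libraries, with HBM at 0 in arousal 1 and winter active 2. The sum of 7 B cell genes was 2605 and 2979 in summer against 671 to 1437 in the other states. The sum of 5 T cell genes was 155 and 191 in summer against 62.9 to 136 in the other states. The sum of 7 macrophage genes was 18415 and 17142 in torpor against 4239 to 14774 in the other states. The sum of 7 neutrophil genes was 12317 in torpor 1 against 1054 to 3616 elsewhere, and that of 9 hepatocyte genes was 18642 in arousal 2 against 37.6 to 2266 elsewhere. The sum of 4 gastric genes was 1730.1 in winter active 2 against at most 129 elsewhere, and that of 2 squamous epithelium genes was 1651 in summer active 2 against at most 2.87 elsewhere. The part of these differences in the results below was not tested.

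No proteasome member was called in any of the 6 comparisons, and each of the 35 proteasome genes past the minimum was expressed in every library. The 14 core subunits had a median level of 212 rescaled TPM (117.7 for PSMB5 to 322 for PSMB1, means over 8 libraries). The 18 regulatory subunits had a median of 99.0 (46.1 for PSMD12 to 173 for PSMD13). The 9 highest of the 35 were all core subunits. The highest library of a proteasome gene exceeded its lowest by a median of 0.70 on the log2 scale, a 1.62-fold range. The median range was 1.11 over all genes tested and 0.95, or 1.93-fold, over the 2615 genes with a mean of at least 50.

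**Figure D1:**
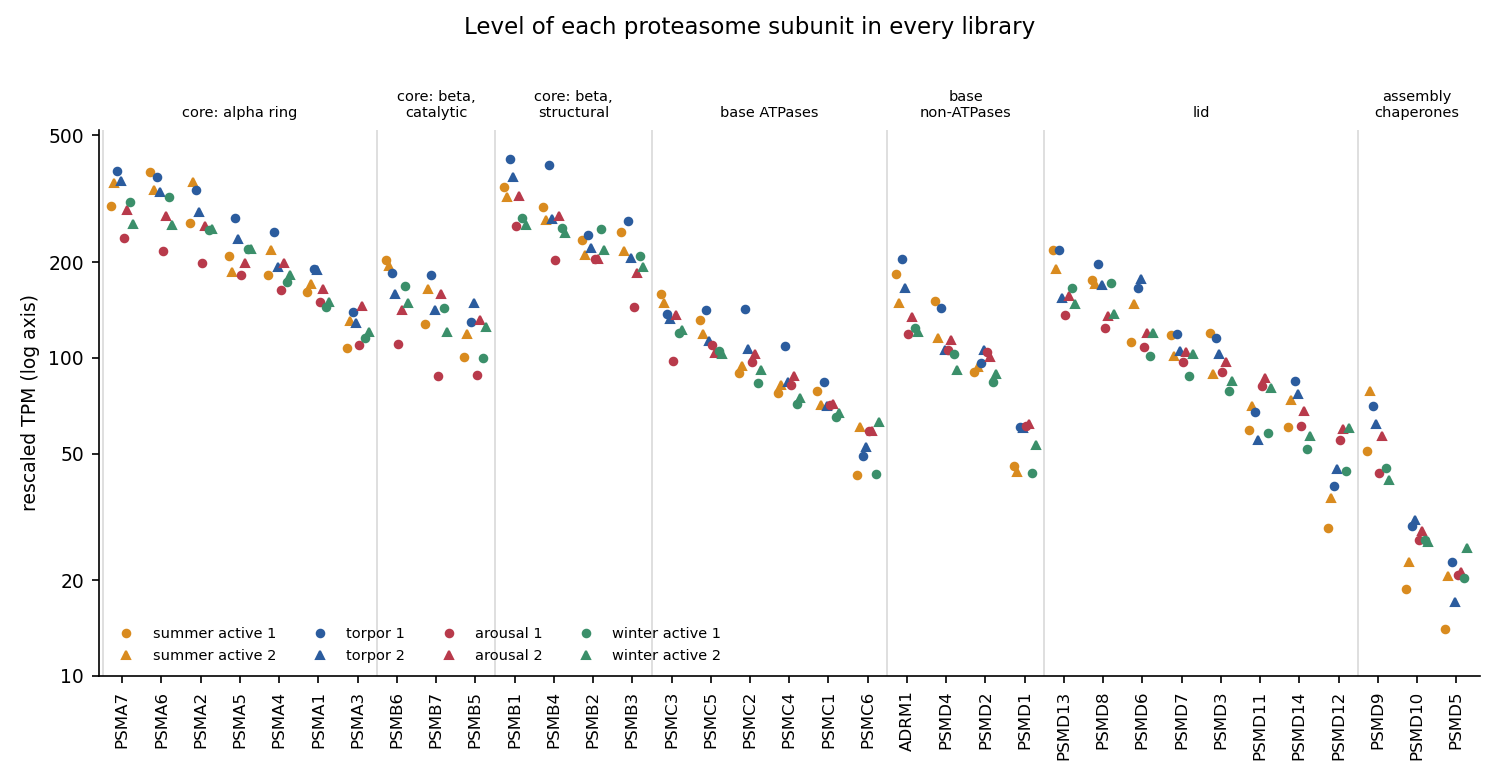
Level of the 35 proteasome genes in each of the 8 libraries, in rescaled TPM on a log axis, grouped by role and ordered by mean level within a role; circles are replicate 1 and triangles replicate 2. Core subunits lie between 87.6 and 421, and regulatory subunits reach down to 29.2 for PSMD12 in summer active 1.

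The 7 alpha subunits form the outer rings of the core and gate entry to it. PSMA6 stood at 384 and 336 in summer, 371 and 333 in torpor, 217 and 279.6 in arousal and 319 and 262 in winter active libraries. Both arousal values lay below all summer and torpor values. PSMA7, which had the same mean level as PSMA6 to 3 digits (313), ranged from 238 in arousal 1 to 387 in torpor 1. The other 5 alpha subunits had means of 125 (PSMA3) to 276 (PSMA2), and PSMA3 was the only alpha subunit that was highest in arousal 2. All 7 alpha subunits were lower in arousal than in torpor and all 7 in the winter active state than in torpor, with medians of -0.42 and -0.30 (log2).

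The catalytic subunits divide the work of cutting by the kind of residue they prefer. PSMB5, the chymotrypsin-like subunit and the main target of proteasome inhibitor drugs, stood at 101 and 118 in summer, 129.5 and 148 in torpor, 88.5 and 131 in arousal and 99.9 and 125 in winter active libraries. Torpor was above summer in both libraries, and arousal overlapped the other 3 states. PSMB6, the caspase-like subunit, stood at 203 and 195 in summer, 184 and 159 in torpor, 111 and 141 in arousal and 168 and 149 in winter active libraries. Summer lay above all other libraries and arousal below all. PSMB7, the trypsin-like subunit, stood at 128 and 165 in summer, 182 and 142 in torpor, 87.6 and 159 in arousal and 143 and 121 in winter active libraries. All 4 states overlapped at least one neighbour, and the 2 arousal libraries differed most.

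The structural beta subunits PSMB1, PSMB2, PSMB3 and PSMB4 complete the inner rings. PSMB3 stood at 249 and 216 in summer, 269.9 and 206 in torpor, 144 and 185 in arousal and 209 and 192 in winter active libraries, with both arousal values below all others. PSMB1 ranged from 259 in arousal 1 to 421 in torpor 1 and PSMB4 from 202 to 404 in the same libraries. PSMB2 was the steadiest of the 35 proteasome genes, between 204 and 253, a 1.24-fold range.

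The base of the regulatory particle unfolds substrates with the ATPases PSMC1 to PSMC6. PSMC3 stood at 159 and 148 in summer, 137 and 132 in torpor, 97.6 and 136 in arousal and 119.8 and 123 in winter active libraries. PSMC2 stood at 89.6 and 94.4 in summer, 142 and 106 in torpor, 97.2 and 103 in arousal and 83.2 and 91.3 in winter active libraries. PSMC3 was thus highest in summer, whereas PSMC2 was highest in torpor. PSMC6 stood at 42.7 and 60.5 in summer, 49.2 and 52.5 in torpor, 58.9 and 58.8 in arousal and 43.1 and 62.7 in winter active libraries, so that the span of the winter active pair covered all torpor and arousal values. The other 3 ATPases had means of 72.4 (PSMC1), 83.7 (PSMC4) and 116 (PSMC5).

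Of the other base subunits, ADRM1 and PSMD4 bind ubiquitin chains, and PSMD1 and PSMD2 are the large scaffolds. ADRM1 stood at 183 and 148 in summer, 205 and 166 in torpor, 119 and 134 in arousal and 124 and 120.4 in winter active libraries. PSMD4 stood at 150.4 and 115 in summer, 144 and 106 in torpor, 106 and 114 in arousal and 103 and 91.8 in winter active libraries. Both receptors were lowest in arousal or winter active libraries, without overlap with torpor for ADRM1 and with overlap between arousal and torpor for PSMD4. PSMD1 stood at 45.7 and 43.7 in summer, 60.6 and 60.0 in torpor, 61.1 and 62.0 in arousal and 43.3 and 53.3 in winter active libraries. PSMD2 stood at 90.2 and 93.4 in summer, 96.4 and 106 in torpor, 105 and 101 in arousal and 83.9 and 88.8 in winter active libraries. Both scaffolds were higher in all torpor and arousal libraries than in all summer and winter active libraries.

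The lid holds 8 measured members of the rule. PSMD14, the deubiquitinase, stood at 60.4 and 73.7 in summer, 84.2 and 77.0 in torpor, 61.0 and 68.2 in arousal and 51.6 and 56.9 in winter active libraries. Torpor lay above and winter active below all other libraries. PSMD6 stood at 112 and 148 in summer, 166 and 176 in torpor, 108 and 119.8 in arousal and 101 and 120.1 in winter active libraries, with torpor again above all others. PSMD8 stood at 176 and 171 in summer, 198 and 169 in torpor, 124 and 135 in arousal and 172 and 137 in winter active libraries, and arousal lay below all others. PSMD11, which helps to hold the regulatory particle to the core, stood at 59.1 and 70.8 in summer, 67.4 and 55.1 in torpor, 81.6 and 86.3 in arousal and 58.0 and 80.4 in winter active libraries. PSMD12, a structural lid subunit, stood at 29.2 and 36.2 in summer, 39.6 and 44.8 in torpor, 55.3 and 59.6 in arousal and 44.1 and 60.0 in winter active libraries. Arousal lay above all other libraries for PSMD11, and summer lay below all other libraries for PSMD12. PSMD13, PSMD7 and PSMD3 had means of 173, 104 and 97.2.

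The chaperones PSMD5, PSMD9 and PSMD10 hold the base ATPases during assembly and leave before the particle is complete. PSMD9 stood at 50.8 and 78.4 in summer, 70.4 and 61.7 in torpor, 43.5 and 56.6 in arousal and 44.9 and 41.2 in winter active libraries. PSMD10, also known as the oncoprotein gankyrin, stood at 18.7 and 22.8 in summer, 29.5 and 31.0 in torpor, 26.7 and 28.5 in arousal and 26.7 and 26.4 in winter active libraries. PSMD5 stood at 14.0 and 20.5 in summer, 22.8 and 17.0 in torpor, 20.8 and 21.2 in arousal and 20.3 and 25.3 in winter active libraries. Summer was below all November libraries for PSMD10, winter active below torpor and overlapping arousal for PSMD9, and the states overlapped for PSMD5 except for arousal above summer. The meiotic cofactor PSMC3IP stood at 21.0 and 23.8 in summer, 13.1 and 10.9 in torpor, 11.3 and 12.7 in arousal and 15.4 and 17.9 in winter active libraries, with summer above all others. The sum of 8 proliferation genes was also highest in summer, at 397 and 742 against 64.3 to 155 in the other states. So were the erythroid, B cell and T cell sums given above, and the part of these sums in the PSMC3IP level was not tested.

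**Figure D2:**
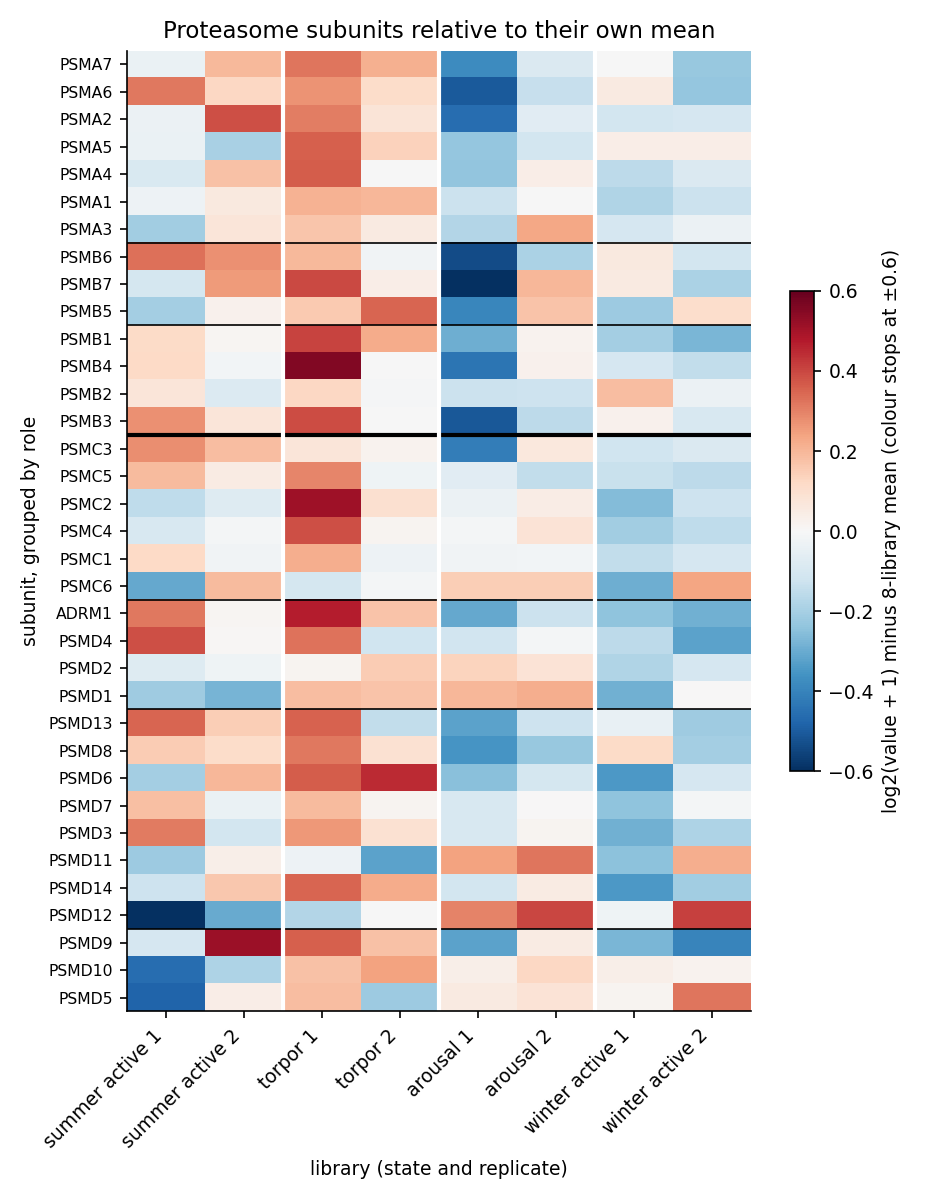
Each row is a proteasome gene and each column a library; colour is the log2(value + 1) level minus the gene's mean over the 8 libraries, stopping at 0.6 in either direction, and the thick line parts the core (above) from the regulatory particle and its chaperones. Torpor 1 is the reddest column and arousal 1 the bluest over the core, while PSMD12, PSMD11, PSMC6 and PSMD2 run against that order. PSMD1 is nearly equal in torpor 1 and arousal 1 (60.6 and 61.1).

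Single libraries set many of these extremes. Torpor 1 was the highest library for 8 of 14 core and 9 of 18 regulatory subunits. Arousal 1 was the lowest for 12 of 14 core subunits and for 4 of 18 regulatory subunits. Winter active 1 was the lowest for 9 of 18 regulatory subunits and for 1 core subunit. The share of all genes tested with their highest or lowest value in these libraries was not counted. These counts can therefore not be read as particular to the subunits. Torpor 1 was also the library with the neutrophil sum of 12317, and its pancreatic sum of 1579 was the highest of the 8. Their part in the subunit levels was not tested.

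Torpor was compared with the summer active state first. No member was called, beside 0.561% of all genes tested, and the smallest adjusted p of a member was 0.141 (limma). At an unadjusted p under 0.05, 2 members stood higher (6.28% of all genes) and 1 lower (9.71%). The core median difference was 0.16 (12 of 14 subunits positive) and the regulatory median 0.076 (13 of 18), against -0.055 over all genes. For genes with a mean of at least 50, the median was 0.064. Both libraries of torpor lay above both of summer for 13 of 36 members (20.4% of all genes) and below for 3 (26%). PSMD10 differed by 0.53 (SE 0.19, limma adjusted p = 0.238), PSMD1 by 0.43 (adjusted p = 0.303) and PSMC2 by 0.41 (adjusted p = 0.353). PSMC3IP differed by -0.85 (SE 0.21, limma adjusted p = 0.141), PSMB6 by -0.22 and PSMC3 by -0.18. With columns set to 1000000 the core and regulatory medians were 0.55 and 0.47, against 0.29 over all genes. No member was called at that scale either, and 19 stood higher (20.4% of all genes) and 0 lower at an unadjusted p under 0.05. Without torpor 1 the core median on the deposited scale was -0.019 and the regulatory median -0.001. Since spleen was measured whole, fewer cells of a type and less RNA per cell cannot be told apart, here or below.

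Arousal after 2 h was compared with torpor. No gene of the 13542 was called (0%), the smallest adjusted p of a member was 0.200 (limma), and 8 members stood lower (6.88% of all genes) and 0 higher (12.8%) at an unadjusted p under 0.05. All 14 core subunits and 13 of 18 regulatory subunits were lower in arousal, with medians of -0.45 and -0.19 against 0.11 over all genes. Among genes with a mean of at least 50, the median was -0.25. Arousal lay below torpor without overlap for 19 of 36 members (22.2% of all genes) and above for 4 (31.9%). PSMD6, ADRM1 and PSMD8 differed by -0.58 (SE 0.20), -0.54 (SE 0.20) and -0.50 (SE 0.19), with limma adjusted p of 0.200, 0.213 and 0.223. PSMD11 and PSMD12 differed by 0.46 (SE 0.22) and 0.44 (SE 0.22), with adjusted p of 0.299 and 0.304, and PSMC6 by 0.21. The direction of the regulatory median depended on scale: with columns set to 1000000 it was 0.18 and the core median -0.069, against 0.45 over all genes. At that scale 441 genes (3.26%) were called higher and 4 lower, none of them a member (limma), and at an unadjusted p under 0.05 there were 2 members higher (29.7% of all genes) and 0 lower. Median-of-ratios rescaling divides a library by the median ratio of its genes to their geometric means over the libraries. With it both medians stayed negative, at -0.58 for the core and -0.32 for the regulatory particle, against -0.0024 over all genes. Under quantile normalization the core median was -0.20, and 0 members passed an unadjusted p of 0.05 in either direction. Without arousal 1 the core median was -0.25, and without torpor 1 the regulatory median was -0.069.

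The winter active state, 26 h after capture, was compared with torpor. No gene was called (0%), the smallest adjusted p of a member was 0.314 (limma), and 6 members stood lower (4.11% of all genes) and 0 higher (9.09%) at an unadjusted p under 0.05. Of the core, 13 of 14 subunits were lower, and of the regulatory particle 15 of 18, with medians of -0.29 and -0.26 against 0.079 over all genes and -0.16 over genes with a mean of at least 50. Winter active lay below torpor without overlap for 25 of 36 members (21.3% of all genes) and above for 1 (29.6%). The 3 members with the smallest p were PSMD6 at -0.63 (SE 0.20), PSMD14 at -0.56 (SE 0.19) and ADRM1 at -0.59 (SE 0.20), with limma adjusted p of 0.314, 0.314 and 0.320. PSMC3IP, PSMD12 and PSMD5 differed by 0.44, 0.28 and 0.19. Without torpor 1 the medians were -0.12 for the core and -0.14 for the regulatory particle, and with columns set to 1000000 they were -0.11 and -0.087. With median-of-ratios rescaling the core and regulatory medians were -0.41 and -0.38, against -0.024 over all genes. This comparison and the one of arousal share the torpor libraries.

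The winter active state was also compared with the summer active state. No member was called, beside 1.03% of all genes, and at an unadjusted p under 0.05 there was 1 member higher (7.88% of all genes) and 0 lower (6.96%). The core median was -0.17 and the regulatory median -0.19, against 0.046 over all genes. For genes with a mean of at least 50, the median was -0.089. Without summer active 2 the core median was -0.073. Winter active lay below summer without overlap for 19 of 36 members (21.9% of all genes) and above for 3 (27.2%). PSMD12 differed by 0.64 (SE 0.22, limma adjusted p = 0.256), PSMD10 by 0.35 and PSMD5 by 0.39. ADRM1 differed by -0.43, PSMD9 by -0.54 and PSMC3IP by -0.41. With columns set to 1000000 both medians turned positive (0.40 and 0.38, against 0.55 over all genes), and PSMD12 and PSMD10 were called higher, beside 4.89% of all genes called higher (5.1% where erythroid and other-tissue list genes were also left out). PSMD12 was then at 1.20 (limma adjusted p = 0.0459).

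Arousal against the summer active state was the comparison with the most calls over all genes, 5.52%, and none of them was a member (limma). At an unadjusted p under 0.05, 2 members stood higher (15.7% of all genes) and 3 lower (13.2%). The core median was -0.23 (13 of 14 subunits lower) and the regulatory median -0.094 (11 of 18 lower), against 0.083 over all genes. For genes with a mean of at least 50, the median was -0.15, below the regulatory median. Arousal lay below summer without overlap for 13 of 36 members (25.3% of all genes) and above for 8 (32%). PSMD12 differed by 0.80 (SE 0.22, limma adjusted p = 0.0709), PSMD1 by 0.45 (adjusted p = 0.147) and PSMD10 by 0.40 (adjusted p = 0.202). PSMC3IP differed by -0.85 (SE 0.21, limma adjusted p = 0.0573), PSMB6 by -0.67 (SE 0.19, adjusted p = 0.0816) and PSMA6 by -0.54 (adjusted p = 0.146). Without arousal 1 the core median was -0.035, and without summer active 1 the regulatory median was -0.023. PSMC3IP was called lower at a minimum mean of 5 and under quantile normalization, where 4.22% and 2.97% of the genes tested were called lower. With columns set to 1000000 the medians were 0.54 and 0.67, against 0.76 over all genes, and 19 members were called higher beside 43.1% of all genes (20 beside 44.2% where erythroid and other-tissue list genes were also left out), so that neither particle kept its direction against summer under both scales in the arousal and winter active states. In torpor against summer both particles kept theirs. The 2 highest genes of the table were not among the list genes left out. They held 14.6% and 16.8% of the summer column totals, and 6.31% and 3.32% of those of arousal.

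The winter active state was last compared with arousal. No gene was called (0%) and at an unadjusted p under 0.05 there were 0 members higher (3.08% of all genes) and 0 lower (2.37%), with a smallest adjusted p of 0.825 among the members (limma). The core median was 0.14 (10 of 14 positive) and the regulatory median -0.16 (15 of 18 negative), against -0.037 over all genes. For genes with a mean of at least 50, the median was 0.068. Winter active lay above arousal without overlap for 6 of 36 members (18.1% of all genes) and below for 10 (21.3%). PSMC3IP, PSMB6 and PSMB3 differed by 0.45, 0.34 and 0.29, and PSMD1, PSMD2 and PSMD14 by -0.35, -0.25 and -0.25. Without arousal 1 the core median was -0.095, and without winter active 1 the regulatory median was -0.065. With columns set to 1000000 the core median turned to -0.065 and the regulatory median was -0.37, against -0.22 over all genes.

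The precision of these differences varied between genes. Over the 35 proteasome genes the 95% interval of a difference reached a median of 0.47 (log2) to each side, which is 1.38-fold, and between 0.38 and 0.73. No difference of the 35 exceeded 1 in size. In torpor against summer and in winter active against arousal all 35 intervals lay within 1 of 0, and in the other comparisons 29 (arousal against torpor), 31 (winter active against torpor), 33 (winter active against summer) and 30 (arousal against summer) did. On the scale as deposited, a doubling or a halving was therefore outside the interval for most subunits.

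The core and the regulatory particle were compared within each library, a value that does not move with the scale of a library. The summed core level was 1.63 and 1.75 times the summed regulatory level in summer, 1.74 and 1.73 times in torpor, 1.42 and 1.64 times in arousal and 1.84 and 1.66 times in winter active libraries. Arousal 1 had the lowest ratio and winter active 1 the highest. The core median minus the regulatory median of the distances from the 8-library mean was -0.30 in arousal 1 and -0.063 in arousal 2, against -0.053 to 0.18 in the other 6 libraries, with a pooled SD between replicates of 0.11. The difference between particles was -0.25 in arousal against torpor, where the core was the lower particle, and 0.30 in winter active against arousal. Both values leaned on arousal 1: without it they were -0.14 and 0.097 (under quantile normalization -0.15 and 0.18), and the second value was 0.14 without winter active 1. In the other 4 comparisons the particles differed by -0.14 to 0.085.

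**Figure D3:**
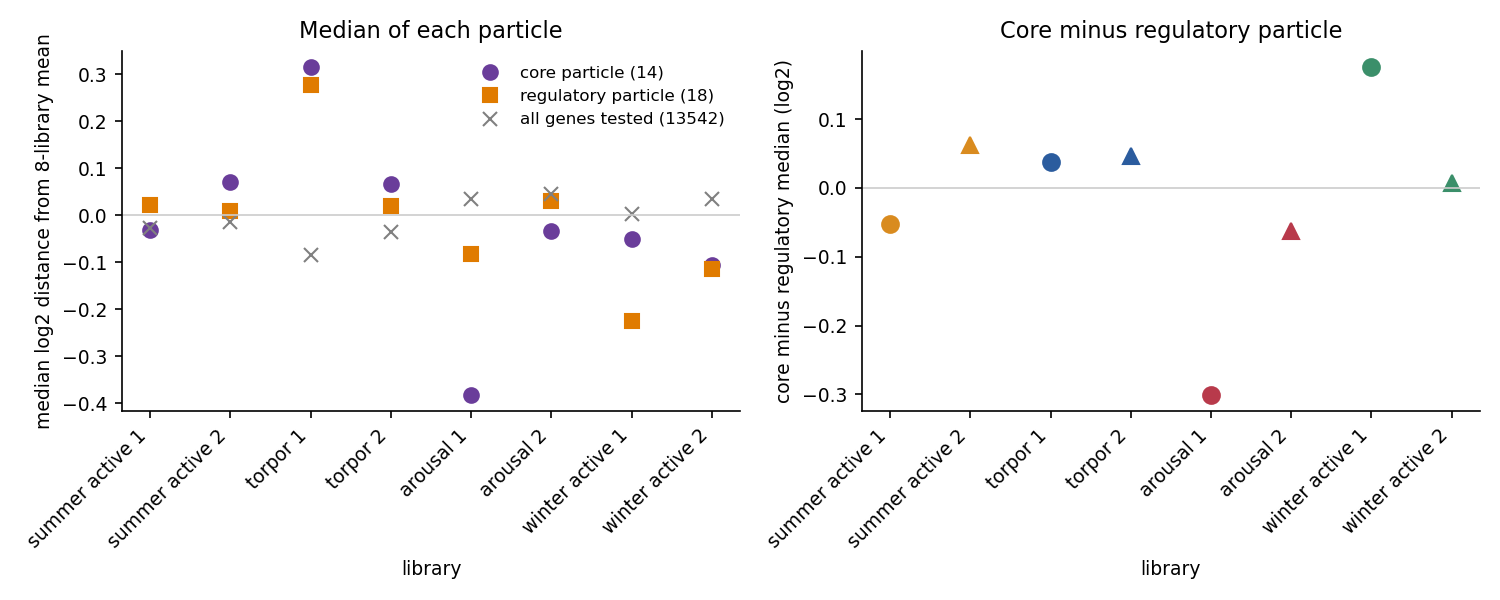
Left, the median log2 distance from the 8-library mean for the core (14 subunits), the regulatory particle (18 subunits) and all 13542 genes tested, by library; right, the core minus the regulatory median, with circles for replicate 1, triangles for replicate 2 and 1 colour per state. Torpor 1 is high for both particles (0.31 and 0.28), and arousal 1 is low mainly for the core (-0.38 against -0.082).

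Within the regulatory particle, subunits of low level tended to stand higher in arousal than in summer, and abundant ones lower. This description was chosen after the values were seen. The SD of log2 level over the 18 regulatory subunits was 0.80 and 0.65 in summer, 0.71 and 0.61 in torpor, 0.40 and 0.44 in arousal and 0.62 and 0.45 in winter active libraries. Both arousal libraries thus had the narrowest spread of regulatory levels, next to winter active 2. The ratio of PSMD13 to PSMD12, the highest and the lowest regulatory subunit by mean, was 7.46 and 5.23 in summer, 5.52 and 3.44 in torpor, 2.47 and 2.63 in arousal and 3.75 and 2.45 in winter active libraries. The SD over the 14 core subunits moved less, between 0.43 and 0.61. Over genes with a mean of at least 50 the SD was 1.40 and 1.45 in arousal and 1.49 to 1.71 in the other libraries. None of these values moves with the scale of a library.

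The level of each subunit was then taken from the 4 libraries outside a comparison and set against its difference. This level was kept as deposited in every alternative, and many alternatives leave the order of the differences nearly unchanged. The ranges of rho over the alternatives are thus a weak check. For the 18 regulatory subunits in arousal against summer, Spearman's rho was -0.92, and between -0.92 and -0.78 over the alternatives. In arousal against torpor it was -0.76 (-0.80 to -0.65), and in winter active against arousal 0.75 (0.20 to 0.89). For the 14 core subunits rho was -0.39 (-0.55 to -0.13), -0.68 (-0.69 to -0.18) and 0.16 (-0.15 to 0.34) in the same comparisons. Over genes with a mean of at least 50 it was -0.16, -0.36 and 0.34. For the regulatory subunits the narrower spread in arousal largely gives rho its sign, so rho is no result separate from the SD. These correlations are across genes of the same libraries, which are not independent replicates, and the comparisons share libraries, so they are descriptions without a p-value. At the low end PSMD12, PSMD1, PSMC6 and PSMD11 had differences of 0.80, 0.45, 0.21 and 0.37 in arousal against summer, and at the high end PSMD13, PSMD8 and ADRM1 had -0.47, -0.42 and -0.38, none of them called.

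**Figure D4:**
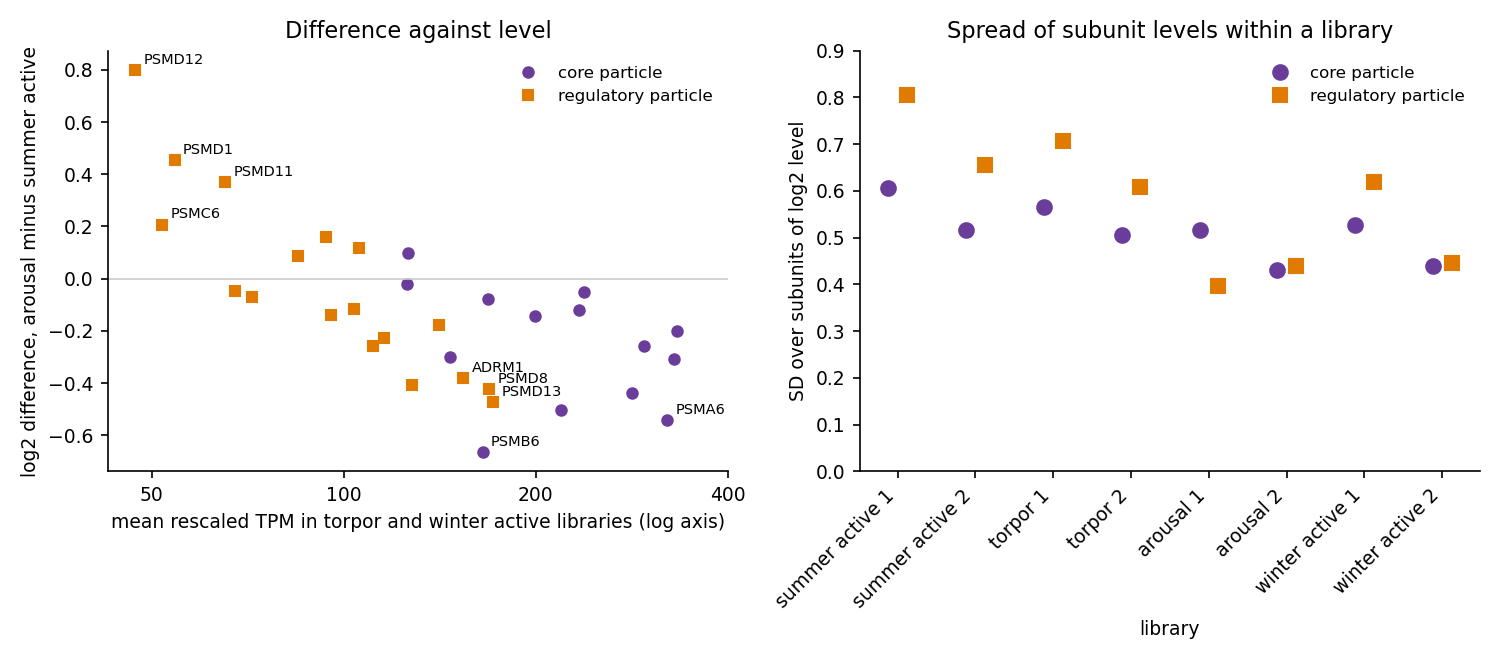
Left, the log2 difference of each core and regulatory subunit in arousal against summer active, against its mean level in the torpor and winter active libraries (log axis); right, the SD of log2 level over the 14 core and the 18 regulatory subunits in each library. Regulatory subunits run from PSMD12 (46.1 by 8-library mean, difference 0.80) down to PSMD13 (173, difference -0.47), and their SD is 0.40 and 0.44 in arousal against 0.80 and 0.65 in summer.

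Of 43 other genes of the pathway, 42 were in the table and all 42 were tested. They were called in 1 comparison, arousal against summer, where 2 were higher and 3 lower, beside 2.39% and 3.14% of all genes. Both higher genes were ubiquilins, shuttle receptors that carry ubiquitin-tagged proteins to the proteasome (2 of 5 shuttle receptors tested). UBQLN1 stood at 37.2 and 41.0 in summer, 58.2 and 72.3 in torpor, 80.9 and 81.2 in arousal and 45.8 and 54.4 in winter active libraries, and was higher in arousal by 1.03 (SE 0.19, limma adjusted p = 0.0352). UBQLN2 stood at 5.63 and 5.65 in summer, 7.46 and 10.3 in torpor, 29.6 and 15.3 in arousal and 11.1 and 14.6 in winter active libraries, a difference of 1.75 (SE 0.34, adjusted p = 0.0387). Arousal was the highest state for both, without overlap with any other library. Both kept their call under quantile normalization and with columns set to 1000000.

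Of the 3 genes called lower, UBB and PSMB9 are described. UBB, which encodes a ubiquitin chain, stood at 3298 and 2914 in summer, 1888 and 1449 in torpor, 1332 and 1415 in arousal and 2356 and 1731 in winter active libraries, a difference of -1.17 in arousal against summer (limma adjusted p = 0.0466). Summer lay above all other libraries. UBB was not called with columns set to 1000000 (-0.40, adjusted p = 0.176) or under quantile normalization (adjusted p = 0.234). Close copies of ubiquitin genes can split reads between them, which leaves its level uncertain.

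The immunoproteasome subunit PSMB9 stood at 266 and 371 in summer, 246 and 249 in torpor, 138 and 138 in arousal and 242 and 157 in winter active libraries, with a difference of -1.18 in arousal against summer (limma adjusted p = 0.0474; 0.168 with columns set to 1000000). PSMB8 (452 and 519, 432 and 364, 266 and 241, 399 and 300.3 in the same order of states) differed by -0.93 (adjusted p = 0.0514). PSMB10 ranged from 126 in arousal 1 to 262 in torpor 1. The ratio of PSMB8 to the subunit it replaces, PSMB5, was 4.49 and 4.39 in summer, 3.34 and 2.45 in torpor, 3.00 and 1.84 in arousal and 3.99 and 2.40 in winter active libraries. Summer lay above all other libraries, with an exact permutation p of 0.333 (two-sided) against each November state, the smallest that 2 against 2 allows. The B cell, T cell, erythroid and proliferation sums were likewise highest in summer, and their part in the ratio was not tested. The ratios of PSMB9 to PSMB6 (0.978 to 1.90) and of PSMB10 to PSMB7 (0.871 to 1.77) did not set summer apart.

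The 4 calls described were mostly lost when any 1 library was left out. This held also for torpor and winter active libraries, which are in neither state compared. Fewer of all genes were called in each of these fits than in the full fit, so the loss was not particular to the 4. Of the 8 fits that each left out 1 library, UBQLN1, UBQLN2 and UBB were called in 0 and PSMB9 in 1 (without summer active 1), with limma adjusted p of up to 0.135, 0.143, 0.168 and 0.163.

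**Figure D5:**
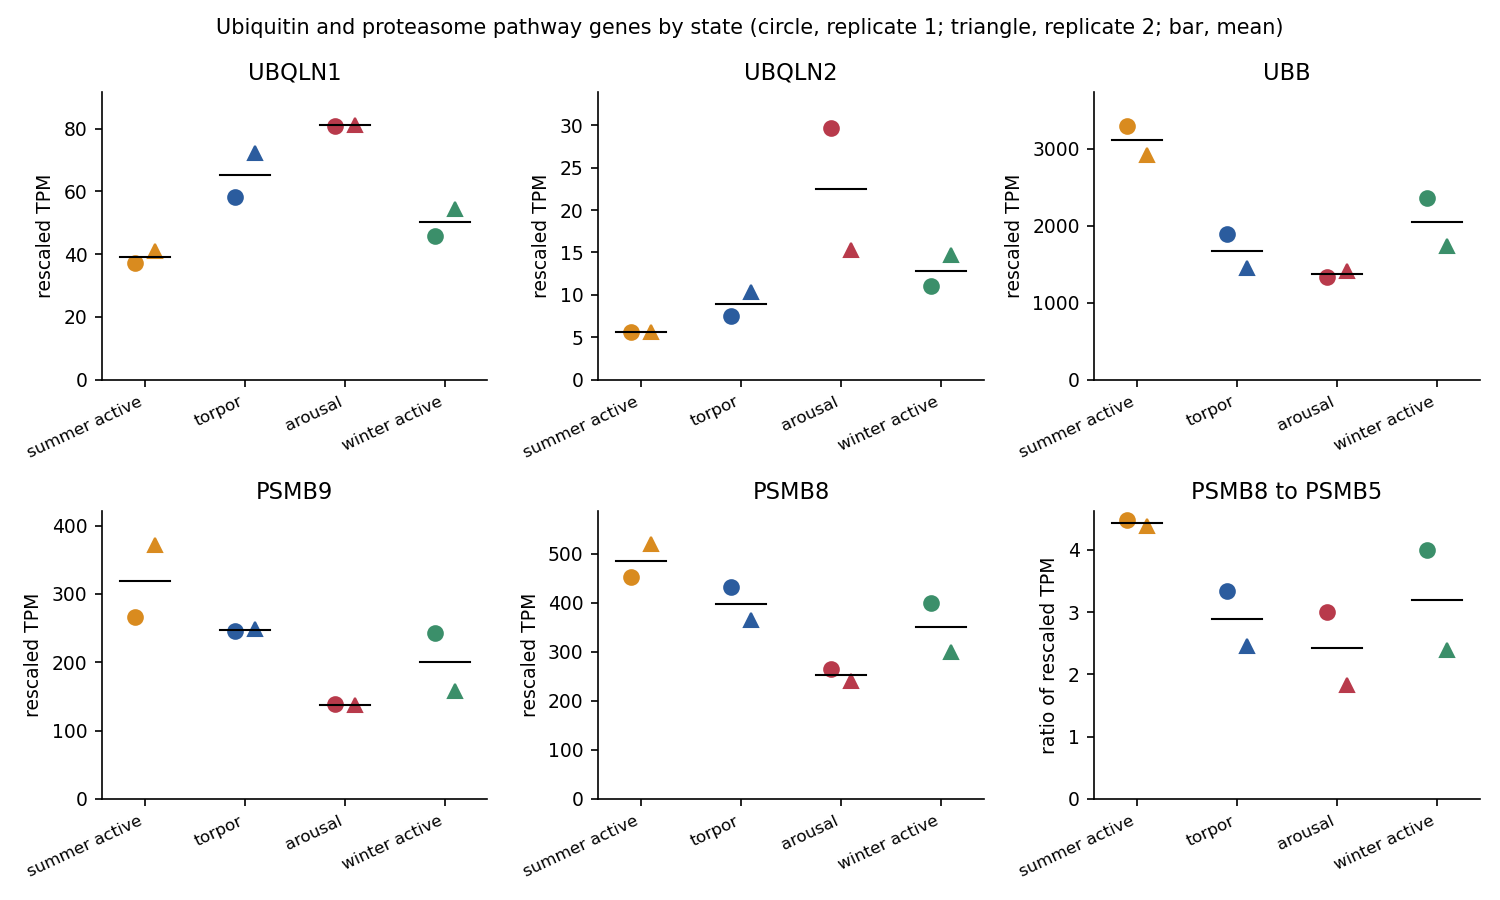
Levels of 4 pathway genes called in arousal against summer active (UBQLN1, UBQLN2, UBB and PSMB9), of PSMB8, which was not called, and the ratio of PSMB8 to PSMB5, by state; circles are replicate 1, triangles replicate 2, bars the mean of both, and axes start at 0. UBQLN1 rises from 37.2 and 41.0 in summer to 80.9 and 81.2 in arousal, UBB, PSMB9 and PSMB8 have both summer libraries above all others, and both summer ratios (4.49 and 4.39) exceed the other 6.

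The other lists gave no call in any comparison. NFE2L1, the transcription factor known to raise proteasome gene expression when proteasome activity falls, stood at 82.2 and 90.8 in summer, 43.4 and 65.5 in torpor, 79.8 and 87.1 in arousal and 76.0 and 109 in winter active libraries. Torpor lay below all other libraries, and no difference was called. Torpor differed from summer by -0.69 (limma adjusted p = 0.269), and arousal and winter active from torpor by 0.64 and 0.76 (adjusted p = 0.244 and 0.326). Its relative NFE2L2, a regulator of antioxidant genes, stood at 54.2 and 44.1 in summer, 47.2 and 25.5 in torpor, 111 and 83.4 in arousal and 81.0 and 107 in winter active libraries. It differed by 1.44 in arousal (SE 0.32, limma adjusted p = 0.143) and by 1.40 in winter active (adjusted p = 0.273) against torpor, the smallest p of the 42 in both comparisons. POMP, which helps the core assemble, ranged from 71.6 in winter active 1 to 114 in summer active 2. PSME1, a subunit of the activator that opens the core, differed by -0.76 in arousal against torpor (adjusted p = 0.148), and its partner PSME2 by 0.45 in winter active against arousal (adjusted p = 0.825). PSMF1, a proteasome inhibitor, differed by -0.50 in winter active against torpor (adjusted p = 0.323). The ubiquilin gene UBQLN2 differed by 1.05 in winter active against summer (adjusted p = 0.236). SEM1, the small lid subunit outside the naming rule, stood at 615 and 571 in summer, 672 and 678 in torpor, 435 and 383 in arousal and 506 and 430.2 in winter active libraries, with arousal and winter active below summer and torpor.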

How the data were processed

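RNA was extracted from spleen with on-column DNase and sequenced by Illumina protocols, per the labels. Transcripts were quantified with tools that include kallisto 0.46.2 and sleuth 0.30.0, per the submitters' processing notes. The reference, the summing of transcripts to genes and the rescaling are steps not given in the sources used here. Values as deposited are a signal, TPM rescaled between libraries. The design had assumed plain TPM, and its log-scale test was kept. Depth is unknown, so no counting interval is given. All 19652 identifiers matched the annotation of assembly mRhiFer1_v1.p, which served for names only.

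Genes with a mean of at least 1 (13542) entered limma 3.58.1 (R 4.3.3, eBayes with a trend) as log2(value + 1), with all 8 libraries in 1 fit, 4 residual and 3.29 prior degrees of freedom. The pseudocount was 1. Members, lists and tests were chosen with earlier results of these data known. Members named with all values were the 3 with the smallest p in each direction of each comparison, the catalytic subunits, ubiquitin receptors, PSMD14 and the chaperones. Pathway genes named were those called, 5 fixed genes and the 2 with the smallest p in each comparison, and SEM1, PSMA7, PSMB2 and the range examples were chosen after their values were seen. A few pathway genes chosen by that rule are not reported here. The planned motif search was not run, since no promoter sequence was used here.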

Additional observations from a re-analysis of the deposited data

How the results depend on the processing

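The number of members called stayed at 0 except in these fits. In winter active against summer it was 2 with columns rescaled to 1000000 and 2 when erythroid and other-tissue list genes were also left out. In arousal against summer it was 1 at a minimum mean of 5 and 1 under quantile normalization (PSMC3IP, limma adjusted p = 0.0496 and 0.0434), 19 with rescaled columns and 20 when list genes were also left out. The core minus regulatory median moved from -0.14 to 0.055 (arousal against summer), from -0.25 to -0.15 (arousal against torpor) and from 0.30 to 0.18 (winter active against arousal) under quantile normalization, where the core median in arousal against summer turned from -0.23 to 0.037. Over the fits without 1 library it ranged from -0.020 to 0.18 in torpor against summer, -0.028 to 0.025 in winter active against torpor, -0.42 to -0.14 in arousal against torpor, -0.11 to 0.10 in winter active against summer, -0.26 to 0.032 in arousal against summer and 0.097 to 0.41 in winter active against arousal. ADRM1 in winter active against summer turned from -0.43 to 0.14 with rescaled columns and 0.13 with list genes also left out. Rescaling moves every gene of a library by its construction; the cause of the other changes was not tested. The calls of UBQLN1, UBQLN2, UBB and PSMB9 were lost with no filter on low values (limma adjusted p = 0.0538 to 0.0998) and with only the 2 states compared (0.118 to 0.154). Where a state was left with 1 library, that library was taken to vary as much as those of other states. Counting the 3 chaperones with the regulatory particle, an alternative chosen after seeing the data, moved no result past the spread between replicates.

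Replicate numbers were not taken to pair the samples. Deviations of same-numbered libraries correlated between -0.19 and 0.32 over the 6 pairs of states. The values were 0.23 to 0.32 among summer, torpor and winter active, and -0.19 to 0.12 in the pairs with arousal. Whether same-numbered libraries share a factor is not settled by these values. With a replicate block, 0 members were called in each of the 6 comparisons and the core minus regulatory medians were 0.085, -0.25, -0.028, 0.014, -0.14 and 0.30, as without it, while PSMB9 lost its call (adjusted p = 0.0547). Depth is not known, so what it limits was not assessed.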
